A study of Homo sapiens with 22 samples.

Results

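BH3-only proteins and the paired pore formers BAX and BAK1 are the pro-death members of the BCL2 family. The members described here are 10 of the 28063 genes in the count files, taken by gene symbol: the 8 BH3-only genes BCL2L11, BBC3, BID, PMAIP1, BMF, BIK, BAD and HRK, and the 2 effector genes BAX and BAK1. All 10 members were found, and all 10 passed the filter on low counts, HRK only through the MOLM-13 groups treated with BRM014. In the mitochondrial pathway of cell death, BAX and BAK1 open pores in the outer mitochondrial membrane and so release cytochrome c. Anti-apoptotic relatives such as BCL2, BCL2A1 and MCL1 hold them in check. BH3-only proteins carry a single short helix, the BH3 domain, which occupies the groove of the anti-apoptotic proteins, and some of them (BIM, PUMA and BID) also bind and switch on BAX and BAK1. Leukaemia cells of the myeloid lineage often depend on BCL2 or MCL1, and drugs that mimic the BH3 helix act on this balance.

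RNA-seq counts of MOLM-13, MV-4-11 and THP-1 were used, human acute myeloid leukaemia lines that each carry a KMT2A fusion, 22 libraries in 11 groups of 2. In every line there were cells given 1 µM BRM014, which blocks SMARCA4 and SMARCA2, the motor subunits of SWI/SNF chromatin remodellers, for 24 h and for 72 h, and cells given the solvent DMSO. THP-1 had further groups given 3 µM DB2313, a small molecule that blocks DNA binding by the transcription factor PU.1, for 72 h, and given 10 nM PMA, a phorbol ester used to turn monocytic cells into macrophage-like ones, for 48 h with 24 h of rest after its removal. All cells are labelled WT and grew in RPMI medium with serum. The time in DMSO is not given for single libraries, so the same DMSO pair of a line served for both times, and the 24 h and 72 h values share it. The labels leave it unsaid if replicates came from different cultures, so the spread behind each p-value may be technical. Each line is a single established line, and no other genotype was included.

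Reads in genes numbered 15893489 to 21565666 per library (median 18853905), and 3 counts, the upper 95% limit for a count of 0, were 0.139 to 0.189 CPM (reads of a gene per 1000000 reads in genes). Within pairs the spread exceeded counting error throughout, the chi-square per degree of freedom being 32.7 in the PMA pair, 11.4 in the DB2313 pair, 9.77 in the MOLM-13 DMSO pair and 3.23 to 7.13 in the other groups. All 8 myeloid markers were detected in every library, and the haemoglobin genes were at 0 in 21 or 22 of the 22 libraries. The erythroid genes KLF1 and ALAS2 reached at most 0.341 and 0.307 CPM. The summed level of the 8 myeloid markers in THP-1 was 3067 to 3227 CPM with DMSO. It was 1430 to 1456 CPM after 24 h and 1359 to 1368 CPM after 72 h of BRM014. With DB2313 it was 1455 to 1486 CPM, and with PMA 10264 to 10325 CPM. In MOLM-13 it was 1234 to 1243 CPM at 24 h and 2458 to 2496 CPM at 72 h, against 1692 to 1704 CPM with DMSO, and in MV-4-11 it was 1030.4 to 1058 CPM at 24 h and 1408 to 1439 CPM at 72 h, against 1465 to 1471 CPM with DMSO. The summed level of 7 lymphoid markers, mostly NKG7, was lower with BRM014 in every line, 5.64 to 8.94 CPM in MOLM-13, against 49.2 to 56.8 CPM with DMSO, and it was 62.4 to 76.4 CPM with DB2313, against 19.8 to 23.5 CPM with DMSO. That of 9 epithelial and fibroblast markers stayed at 0.24 to 16.2 CPM except in 2 THP-1 groups, where it was 151 to 155 CPM after 72 h of BRM014 and 70.1 to 76.2 CPM with DB2313, against 2.13 to 2.67 CPM with DMSO, mostly from COL1A1, KRT8 and CDH1, while EPCAM, KRT18, KRT19, COL1A2, COL3A1 and DCN were under 1 CPM throughout. The part of these marker levels in the results below was not tested.

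What the 10 members share at the level of sequence is the BH3 core, a leucine followed after 3 residues by a small residue and an aspartate. The coding stretches of that core are shown as a feature common to the members. Other genes were not searched for it, so it is not shown to be particular to the members. They were read from GENCODE v29 transcripts (GRCh38), are 30 bases long, run 5′ to 3′ on the coding strand, and have the leucine codon and the codons of the small residue and the aspartate in capitals.
BCL2L11: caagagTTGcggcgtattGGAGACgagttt
BBC3: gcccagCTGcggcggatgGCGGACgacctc
BID: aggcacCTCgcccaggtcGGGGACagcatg
PMAIP1: actcaaCTCaggagatttGGAGACaaactg
BMF: cgaaagCTTcagtgcattGCAGACcagttc
BIK: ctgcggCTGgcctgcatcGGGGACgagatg
BAD: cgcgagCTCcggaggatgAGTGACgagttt
HRK: gcccggCTCaaggcgctaGGCGACgagctg
BAX: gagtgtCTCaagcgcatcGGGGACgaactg
BAK1: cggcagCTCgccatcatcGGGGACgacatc
Each stretch lay within 1 exon. A coding match to the core was present in all 10 members, once in 9 of them and at 2 places in BID, for which the place at leucine 136 of a 241-residue product is shown. The codon before the aspartate was a glycine codon in 7 members, an alanine codon in BBC3 and BMF, and a serine codon in BAD.

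Comparison of BRM014 with DMSO asks how transcripts of the pro-death genes follow SWI/SNF activity. BBC3, which encodes PUMA, was higher with BRM014 in all 3 lines, from 0.34 to 2.22 on the log2 scale. The call at 0.34, in MOLM-13 at 24 h, was lost in other fits given below. BIK was lower in MOLM-13 and THP-1, falling by 2.20 and 2.01 at 72 h. PMAIP1, which encodes NOXA, fell by 2.53 in MOLM-13 at 72 h but was higher in THP-1 at 24 h. BAD was higher in 5 of the 6 comparisons, and BAX was lower in 4 of them. Calls are those of edgeR's quasi-likelihood test, with p adjusted over the 16794 genes tested and a threshold of 0.05. Overlap between groups was looked at in the members only, not over all genes, so a lack of overlap is a description. In MOLM-13 at 24 h it was lacking also for BCL2L11 and BAK1, which were not called. In bulk RNA, fewer cells of a kind and less RNA per cell cannot be told apart.

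In MOLM-13 at 24 h, 3 members were called higher (2 without HRK, which passed the filter through these groups) and 5 lower, where 22.7% of all genes tested were called higher and 23.5% lower. At 72 h the MOLM-13 counts were 3 (2 without HRK) and 6 members, against 30.3% and 29.4% of all genes. In MV-4-11 the members split into 3 higher and 2 lower at 24 h (all genes: 23.6% and 22.4%) and again 3 and 2 at 72 h (all genes: 28.4% and 26.1%). In THP-1 they split into 3 higher and 4 lower at 24 h (all genes: 25.9% and 24.1%) and 2 and 5 at 72 h (all genes: 30.9% and 28%). Averaged over lines, 2 members were higher and 4 lower at 24 h, against 28.9% and 27.1% of all genes, and 2 and 5 at 72 h, against 34.9% and 30.4%. BBC3 and BAD were the higher members at both times in that average. BID, BIK, BAX and PMAIP1 were lower at both times, and BAK1 was lower at 72 h. The share called was high in all genes too, so these counts do not set the members apart. The median log2 fold change of the 9 members other than HRK was -0.21 at 24 h and -0.15 at 72 h in the average over lines, where the median of all genes was 0.03 and 0.07. By line that median was -0.38 and -0.65 in MOLM-13 at 24 h and 72 h, -0.07 and 0.16 in MV-4-11, and near 0 and -0.46 in THP-1, where the medians of all genes lay between 0 and 0.06. The MOLM-13 count at 24 h, 8 with HRK, was 5 without the second BRM014 library and 5 without the first DMSO library, and the MV-4-11 count at 24 h, 5, was 3 without the first BRM014 library and 3 without the second DMSO library. The 72 h libraries of MOLM-13 had 18.2% and 18.4% of reads outside annotated genes, against 13.2% and 12.4% with DMSO, and the part of this difference in the results was not tested.

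**Figure D1:**
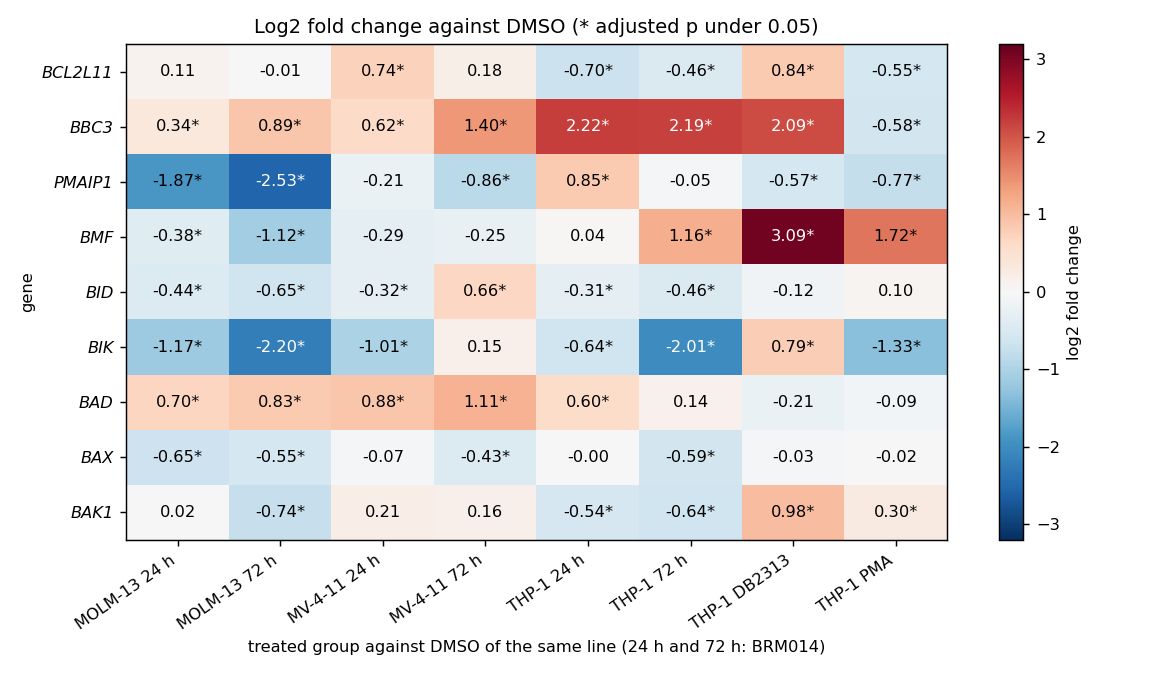
Log2 fold change of 9 members (rows; HRK left out for its counts of 0) in the treated groups against DMSO of the same line (columns), with red for higher, blue for lower and an asterisk for an adjusted p under 0.05. The BBC3 row is red in all 6 BRM014 columns, the BAX row has no red cell past the threshold, and BMF has the darkest red cell, 3.09 with DB2313.

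Among the direct activators, BBC3 (chromosome 19, 47220822 to 47232766, minus strand), the gene of PUMA, had its lowest DMSO level in THP-1. THP-1 libraries held 25.2 and 26.8 CPM of BBC3 after 24 h and 23.5 and 28.9 CPM after 72 h of BRM014, against 4.76 and 5.94 CPM with DMSO. All 4 treated libraries lay far above both DMSO libraries. The log2 fold change was 2.22 ± 0.17 (adjusted p = 1.38e-09) at 24 h and 2.19 ± 0.17 (adjusted p = 1.11e-09) at 72 h. In MV-4-11 the level was 60.9 and 61.2 CPM at 24 h and 101 and 107 CPM at 72 h, against 37.0 and 38.8 CPM with DMSO, with no overlap between groups and folds of 0.62 ± 0.13 (adjusted p = 0.000776) and 1.40 ± 0.13 (adjusted p = 1.95e-08). MOLM-13 libraries had 70.4 and 73.6 CPM at 24 h and 108 and 114 CPM at 72 h, against 42.0 and 62.4 CPM with DMSO. The MOLM-13 DMSO libraries stood far apart from each other, and the groups did not overlap. The fold at 72 h was 0.89 ± 0.13 (adjusted p = 6.21e-06). At 24 h it was 0.34 ± 0.13 (adjusted p = 0.0454), and this call was lost without either 24 h library or without the first DMSO library, where the fold was 0.07 (adjusted p = 0.744). It was lost too with relative log expression scaling (0.33, adjusted p = 0.0532), with DESeq2 (0.33, adjusted p = 0.0655) and with the compared libraries alone (0.35, adjusted p = 0.0722).

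From 24 h to 72 h of BRM014, BBC3 rose in MOLM-13 (0.56 ± 0.13, adjusted p = 0.00152) and MV-4-11 (0.78 ± 0.13, adjusted p = 7.03e-05) and was at -0.03 ± 0.14 (adjusted p = 0.9) in THP-1. The size of the BRM014 effect on BBC3 differed between lines at 24 h (F test adjusted p = 2.16e-06) and at 72 h (adjusted p = 0.000196). At 24 h the THP-1 effect exceeded that of MOLM-13 by 1.89 ± 0.22 (adjusted p = 1.83e-06) and that of MV-4-11 by 1.61 ± 0.22 (adjusted p = 9.63e-06). Even so the THP-1 level after treatment stayed below the DMSO level of both other lines.

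BCL2L11 (chromosome 2, 111119378 to 111168447, plus strand), the gene of BIM, an activator with high affinity for every anti-apoptotic relative, moved differently in each line. MV-4-11 libraries had 257 and 283 CPM after 24 h and 186 and 176 CPM after 72 h of BRM014, against 153 and 154 CPM with DMSO. The 24 h pair was the highest of all 22 libraries, and no treated library overlapped DMSO. The fold was 0.74 ± 0.09 (adjusted p = 1.48e-06) at 24 h and 0.18 ± 0.09 (adjusted p = 0.116) at 72 h, and the level fell between the times (-0.56 ± 0.09, adjusted p = 6.14e-05). With library size alone the 72 h value was 0.24 (adjusted p = 0.0497). In THP-1 the direction was the opposite, with 43.0 and 42.1 CPM at 24 h and 53.7 and 49.0 CPM at 72 h, against 68.3 and 65.2 CPM with DMSO. Groups did not overlap, and the folds were -0.70 ± 0.10 (adjusted p = 7.75e-06) and -0.46 ± 0.10 (adjusted p = 0.000499). MOLM-13 had 65.2 and 69.9 CPM at 24 h and 66.2 and 63.3 CPM at 72 h, against 57.1 and 57.3 CPM with DMSO. Its folds were 0.11 ± 0.10 (adjusted p = 0.392) and -0.01 ± 0.10 (adjusted p = 0.975), and the sign at 72 h turned to 0.18 when library size alone set the scale, a scale that raised folds gene by gene there by a median of 0.19. The line difference was called at 24 h (F test adjusted p = 2.84e-07) and at 72 h (adjusted p = 0.00174). MIR4435-2HG, a non-coding gene on the opposite strand that shares 727 exonic bases with BCL2L11, was at -0.63 ± 0.11 (adjusted p = 0.000101) in MV-4-11 and -0.58 ± 0.11 (adjusted p = 0.000241) in THP-1 at 24 h. The strand of counting is not given in the sources used here, and the part of reads from the shared bases in the BCL2L11 results was not tested.

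BID (chromosome 22, 17734138 to 17774770, minus strand), which caspase-8 cleaves to link death receptors to mitochondria, fell in all lines at 24 h and parted between lines at 72 h. MV-4-11 libraries held 47.3 and 52.1 CPM at 24 h and 98.7 and 95.4 CPM at 72 h, against 57.8 and 60.1 CPM with DMSO. The 24 h pair lay below and the 72 h pair above the DMSO pair, with folds of -0.32 ± 0.09 (adjusted p = 0.00439) and 0.66 ± 0.08 (adjusted p = 1.03e-06) and a rise of 0.98 ± 0.08 (adjusted p = 1.47e-08) between the times. MOLM-13 had 75.8 and 75.7 CPM and then 67.3 and 70.2 CPM, against 93.4 and 95.1 CPM with DMSO, and THP-1 had 57.6 and 57.6 CPM and then 52.1 and 54.9 CPM, against 64.5 and 73.6 CPM. Neither of these lines overlapped its DMSO pair at either time. Their folds were -0.44 ± 0.08 (adjusted p = 0.000192) and -0.65 ± 0.08 (adjusted p = 1.08e-06) in MOLM-13 and -0.31 ± 0.08 (adjusted p = 0.00466) and -0.46 ± 0.09 (adjusted p = 0.000122) in THP-1. At 72 h the MV-4-11 effect exceeded that of MOLM-13 by 1.31 ± 0.12 (adjusted p = 3.4e-08), and the F test over lines gave adjusted p = 2.83e-08. The call at 24 h was lost in MV-4-11 without the first BRM014 library (-0.25, adjusted p = 0.0693) or the second DMSO library (-0.28, adjusted p = 0.0527), and in THP-1 without the second DMSO library (-0.20, adjusted p = 0.127). The average over lines at 72 h, -0.15 ± 0.05 (adjusted p = 0.0118), was lost without that THP-1 library (-0.11, adjusted p = 0.0682) and under library size alone (-0.03, adjusted p = 0.596).

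**Figure D2:**
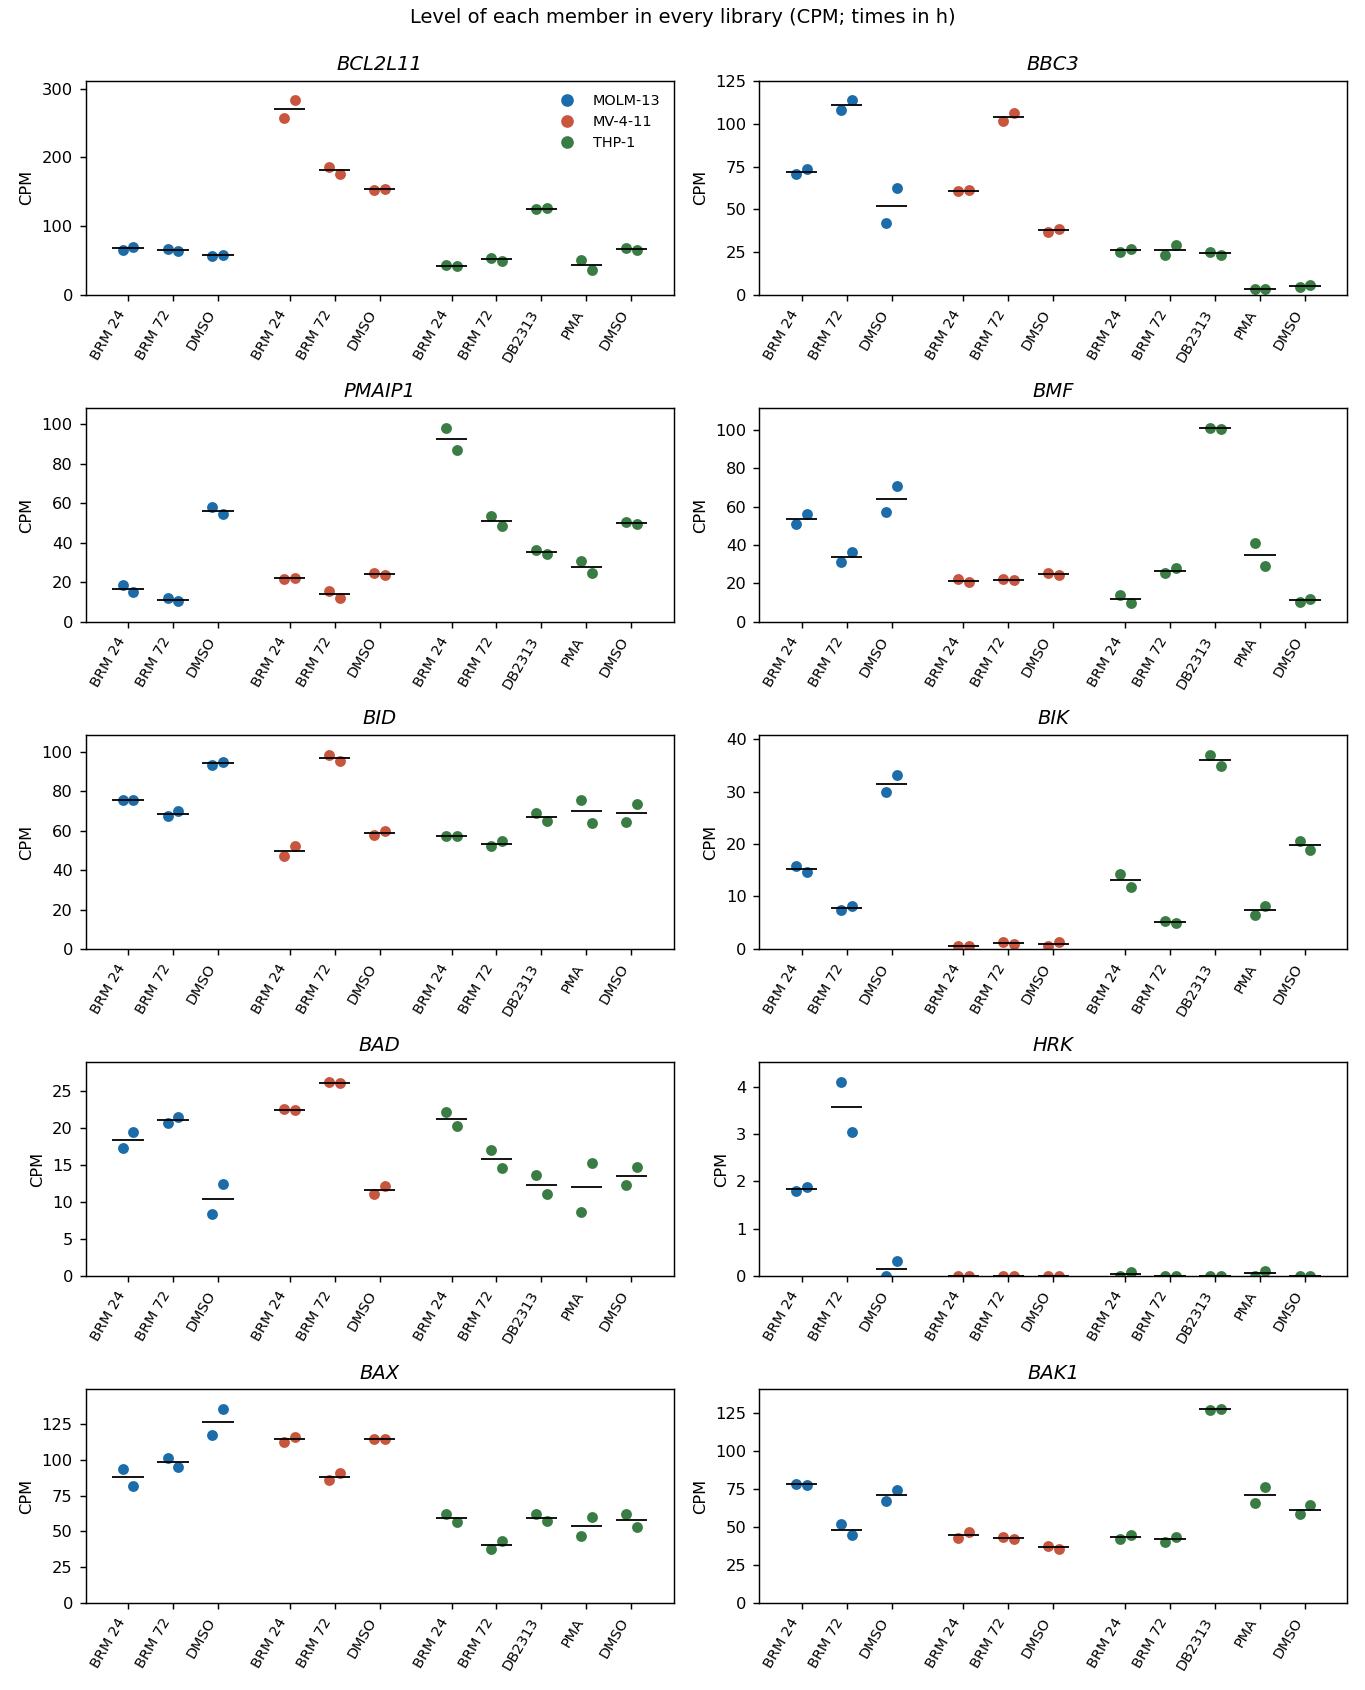
CPM of each member in every library (points; horizontal bars are group means, 2 libraries a group), with 1 panel per gene, blue for MOLM-13, red for MV-4-11 and green for THP-1, and treated groups left of DMSO (BRM 24 and BRM 72: BRM014 for 24 h and 72 h). The panels show the high BCL2L11 of MV-4-11 at 24 h (257 and 283 CPM), BIK near 0 in MV-4-11, HRK above 1 CPM only in MOLM-13 with BRM014, and the DB2313 peaks of BMF and BAK1.

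The sensitizers free the activators by binding anti-apoptotic proteins. PMAIP1 (chromosome 18, 59899948 to 59904306, plus strand) encodes NOXA, which binds MCL1 and BCL2A1. In MOLM-13 it had 18.7 and 14.9 CPM after 24 h and 11.8 and 10.3 CPM after 72 h of BRM014, against 58.0 and 54.3 CPM with DMSO. All 4 treated libraries lay far below both DMSO libraries. The folds were -1.87 ± 0.13 (adjusted p = 3.43e-10) and -2.53 ± 0.13 (adjusted p = 1.52e-12). In THP-1 the 24 h libraries stood above DMSO and the 72 h libraries straddled it, with 98.2 and 87.0 CPM at 24 h and 53.7 and 48.6 CPM at 72 h, against 50.3 and 49.5 CPM with DMSO. The THP-1 folds were 0.85 ± 0.12 (adjusted p = 6.11e-06) and -0.05 ± 0.12 (adjusted p = 0.757), with a fold of -0.89 ± 0.12 (adjusted p = 9.74e-06) between the times. MV-4-11 had 21.8 and 22.2 CPM and then 15.8 and 12.1 CPM, against 24.7 and 23.9 CPM with DMSO, lower in both treated pairs and called at 72 h (-0.86 ± 0.13, adjusted p = 1.47e-05) but not at 24 h (-0.21 ± 0.13, adjusted p = 0.195). At 24 h the THP-1 effect stood 2.71 ± 0.18 (adjusted p = 7.36e-10) above the MOLM-13 effect on the log2 scale. The F tests over lines gave adjusted p = 1.57e-09 at 24 h and adjusted p = 2.8e-09 at 72 h. Later libraries were lower than 24 h libraries in MOLM-13 (-0.67 ± 0.14, adjusted p = 0.000645) and in MV-4-11 (-0.65 ± 0.14, adjusted p = 0.000695) as well.

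BMF (chromosome 15, 40087890 to 40108892, minus strand), whose product is tethered to the cytoskeletal motor light chain DYNLL2 until released, fell in MOLM-13 and rose in THP-1. MOLM-13 had 51.2 and 56.1 CPM at 24 h and 31.2 and 36.4 CPM at 72 h, against 57.4 and 70.9 CPM with DMSO, with no overlap. The folds were -0.38 ± 0.14 (adjusted p = 0.0327) and -1.12 ± 0.15 (adjusted p = 1.1e-06). The 24 h call was lost without either 24 h library (-0.32 without the first and -0.45 without the second), without the second DMSO library (-0.21, adjusted p = 0.373) and with library size alone (-0.26, adjusted p = 0.157). THP-1 had 14.0 and 9.97 CPM at 24 h, overlapping DMSO, and 25.3 and 28.1 CPM at 72 h, above it, against 10.6 and 11.9 CPM with DMSO. Its 72 h fold was 1.16 ± 0.16 (adjusted p = 4.34e-06), and the value at 24 h was 0.04 ± 0.17 (adjusted p = 0.89). MV-4-11 libraries lay in a narrow band, 22.4 and 20.6 CPM at 24 h and 22.1 and 21.7 CPM at 72 h, against 25.5 and 24.4 CPM with DMSO, lower in all 4 treated libraries without a call (-0.29 ± 0.15, adjusted p = 0.14, and -0.25 ± 0.15, adjusted p = 0.19). The effect at 72 h was larger in THP-1 than in MOLM-13 by 2.28 ± 0.22 (adjusted p = 8.5e-08), and the F test over lines gave adjusted p = 1.73e-07, against adjusted p = 0.283 at 24 h. BMF shares 461 exonic bases with the antisense gene BMF-AS1, which was not analysed here.

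BIK (chromosome 22, 43110748 to 43129712, plus strand), a BH3-only protein of the endoplasmic reticulum, was nearly silent in MV-4-11 and fell in the other lines. MOLM-13 had 15.8 and 14.7 CPM at 24 h and 7.51 and 8.09 CPM at 72 h, against 29.9 and 33.1 CPM with DMSO. THP-1 had 14.3 and 11.8 CPM at 24 h and 5.42 and 4.97 CPM at 72 h, against 20.5 and 19.0 CPM with DMSO. In both lines the 24 h pair lay between the 72 h and DMSO pairs, without overlap. The folds were -1.17 ± 0.17 (adjusted p = 1.12e-05) and -2.20 ± 0.18 (adjusted p = 1.41e-09) in MOLM-13, and -0.64 ± 0.17 (adjusted p = 0.00457) and -2.01 ± 0.19 (adjusted p = 1.78e-08) in THP-1, with further falls between the times (-1.03 ± 0.18 and -1.37 ± 0.19, adjusted p = 9.94e-05 and 1.76e-05). Without the second BRM014 library the THP-1 value at 24 h was -0.50 (adjusted p = 0.0741). MV-4-11 held 0.486 and 0.523 CPM at 24 h and 1.28 and 0.987 CPM at 72 h, against 0.611 and 1.29 CPM with DMSO. These are levels of a few to 27 reads, and the fold of -1.01 ± 0.37 (adjusted p = 0.0312) at 24 h was lost without either BRM014 library or without the second DMSO library, where it was -0.33 (adjusted p = 0.714). The MV-4-11 value at 72 h was 0.15 ± 0.32 (adjusted p = 0.767), and it was -0.05 or -0.26 without the first BRM014 or first DMSO library. The rise between the times in MV-4-11 (1.16 ± 0.36, adjusted p = 0.0168) was lost without either 24 h library or the first 72 h library (0.96, adjusted p = 0.132). At 72 h the F test over lines gave adjusted p = 7.53e-05, and at 24 h adjusted p = 0.199.

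BAD (chromosome 11, 64269830 to 64284704, minus strand), which survival kinases such as AKT hold inactive by phosphorylation, was higher after BRM014 in every line at 24 h. MV-4-11 had 22.5 and 22.5 CPM at 24 h and 26.3 and 26.1 CPM at 72 h, against 11.1 and 12.2 CPM with DMSO, and MOLM-13 had 17.4 and 19.5 CPM and then 20.8 and 21.5 CPM, against 8.42 and 12.5 CPM with DMSO. No treated library of these lines overlapped DMSO. The folds were 0.88 ± 0.21 (adjusted p = 0.00174) and 1.11 ± 0.21 (adjusted p = 0.000138) in MV-4-11, and 0.70 ± 0.22 (adjusted p = 0.0128) and 0.83 ± 0.22 (adjusted p = 0.00251) in MOLM-13. Without the first MOLM-13 DMSO library both MOLM-13 calls were lost, at 0.43 (adjusted p = 0.206) and 0.55 (adjusted p = 0.0714), and without the second BRM014 library the 24 h value was 0.61 (adjusted p = 0.0864). THP-1 had 22.2 and 20.3 CPM at 24 h, above DMSO, and 17.0 and 14.6 CPM at 72 h, overlapping it, against 12.3 and 14.8 CPM with DMSO. The THP-1 folds were 0.60 ± 0.21 (adjusted p = 0.0231) and 0.14 ± 0.21 (adjusted p = 0.612). That 24 h call was lost without the first BRM014 library (0.53, adjusted p = 0.113) or the first DMSO library (0.47, adjusted p = 0.164). Lines differed at 72 h (F test adjusted p = 0.0263), where the THP-1 effect minus that of MV-4-11 was -0.98 ± 0.30 (adjusted p = 0.0147). GPR137, on the opposite strand, shares 404 exonic bases with BAD and held 7674 reads over all libraries, against 6927 in BAD. GPR137 rose too, by 0.99 ± 0.14 and 1.57 ± 0.14 in MV-4-11, 1.36 ± 0.16 and 1.44 ± 0.15 in MOLM-13, and 1.05 ± 0.14 and 1.11 ± 0.14 in THP-1 (adjusted p of 4.37e-06 or lower in each). Reads in the shared stretch cannot be told apart without strand, and its part in the BAD result was not tested.

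HRK (chromosome 12, 116856144 to 116881441, minus strand), a BH3-only gene best known from neurons, was detected in numbers only in MOLM-13. Its MOLM-13 counts were 29 and 31 at 24 h and 83 and 57 at 72 h of BRM014, against 0 and 5 with DMSO, that is 1.80 and 1.88 CPM and 4.10 and 3.03 CPM, against 0 and 0.315 CPM. The ratio of summed CPM was 12.1 at 24 h (exact 95% interval 4.89 to 38.5) and 23.5 at 72 h (9.84 to 73.5), intervals that cover counting error only. All 4 treated libraries were above both DMSO libraries, which rest on 5 reads in 1 library. Because HRK passed the filter on low counts only through these BRM014 groups, the values are a description, and no p-value of them is given. Its calls entered the MOLM-13 counts of higher members above, where the counts without HRK stand beside them. HRK had 0 reads in all 6 MV-4-11 libraries, where 3 counts over a group of 2 are 0.0758 to 0.0823 CPM. In THP-1 it had 2 reads in 1 library at 24 h, 2 reads in 1 PMA library and 0 reads in the other 8 libraries. HRK changes were thus not detectable at this depth in MV-4-11 and THP-1.

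Of the effectors, BAX (chromosome 19, 48954815 to 48961798, plus strand), the pore former that moves from cytosol to mitochondria, was lower or at its DMSO level. MOLM-13 had 93.6 and 82.0 CPM at 24 h and 101 and 95.05 CPM at 72 h, against 117 and 136 CPM with DMSO, and the groups did not overlap (-0.65 ± 0.12, adjusted p = 0.000107, and -0.55 ± 0.12, adjusted p = 0.000333). MV-4-11 had 113 and 116 CPM at 24 h, on either side of DMSO, and 85.6 and 91.0 CPM at 72 h, below it, against 114 and 114 CPM with DMSO. The MV-4-11 folds were -0.07 ± 0.12 (adjusted p = 0.66) and -0.43 ± 0.12 (adjusted p = 0.0035). THP-1 had 62.3 and 56.7 CPM at 24 h and 38.0 and 43.2 CPM at 72 h, against 62.5 and 53.1 CPM with DMSO. Only the 72 h pair of THP-1 lay outside the DMSO pair, with a fold of -0.59 ± 0.12 (adjusted p = 0.000351), and at 24 h the difference was near 0 (adjusted p = 0.999). The lines differed at 24 h (F test adjusted p = 0.00582), when MV-4-11 stood above MOLM-13 by 0.58 ± 0.16 (adjusted p = 0.015), and not past the threshold at 72 h (adjusted p = 0.705). The fall from 24 h to 72 h was called in THP-1 (-0.59 ± 0.12, adjusted p = 0.00097) and in MV-4-11 (-0.36 ± 0.12, adjusted p = 0.0206). The MV-4-11 call was lost without any 1 of its 4 BRM014 libraries, with folds of -0.32 to -0.41.

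The BAX promoter is shown because it holds 4 copies of CACGTG, the E-box letters, a number that few promoters hold. The window runs from 250 bases before to 50 after the RefSeq start (GRCh38.p14, chromosome 19, 48954625 to 48954924, plus strand, 5′ to 3′), with CACGTG in capitals.
BAX: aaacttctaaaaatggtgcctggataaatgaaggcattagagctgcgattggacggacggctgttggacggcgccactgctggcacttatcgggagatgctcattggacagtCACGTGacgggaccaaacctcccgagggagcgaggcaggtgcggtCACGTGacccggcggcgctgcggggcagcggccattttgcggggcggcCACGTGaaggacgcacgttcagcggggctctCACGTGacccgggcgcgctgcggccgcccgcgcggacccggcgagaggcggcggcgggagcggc
CACGTG reads the same on both strands and was found in 7.26% of 35116 human promoter windows of that length, and 4 or more copies in 5 windows (0.0142%). Of the 9 members with a RefSeq window, BBC3 had 1 copy, and 2 of the 5 windows of BID had 1. These 2 BID windows overlap and hold the same site. A match describes letters and says nothing of binding in these cells, which was not tested.

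BAK1 (chromosome 6, 33572547 to 33580293, minus strand), the effector that resides in the mitochondrial outer membrane, fell in MOLM-13 at 72 h and in THP-1. MOLM-13 had 78.4 and 78.0 CPM at 24 h and 51.9 and 44.9 CPM at 72 h, against 67.3 and 74.4 CPM with DMSO. The 24 h pair lay just above the DMSO pair and the 72 h pair below it. The folds were 0.02 ± 0.10 (adjusted p = 0.971) and -0.74 ± 0.10 (adjusted p = 1.26e-06). THP-1 had 42.2 and 44.8 CPM and then 40.1 and 43.7 CPM, against 58.4 and 64.3 CPM with DMSO, below DMSO in all 4 libraries (-0.54 ± 0.10, adjusted p = 0.000103, and -0.64 ± 0.10, adjusted p = 1.3e-05). MV-4-11 had 42.6 and 46.6 CPM at 24 h and 43.3 and 42.0 CPM at 72 h, against 37.7 and 35.7 CPM with DMSO, higher in all 4 treated libraries but not called (0.21 ± 0.10, adjusted p = 0.0907, and 0.16 ± 0.10, adjusted p = 0.195). With library size alone as the scale the MV-4-11 value at 24 h was called (0.28, adjusted p = 0.0196). The lines differed at both times (F test adjusted p = 0.000486 and adjusted p = 2.92e-05). At 72 h the MV-4-11 effect was above that of MOLM-13 by 0.90 ± 0.14 (adjusted p = 3.28e-05) and the THP-1 effect minus that of MV-4-11 was -0.80 ± 0.14 (adjusted p = 0.000138). BAK1 shares 91 exonic bases with GGNBP1. GENCODE v29 also lists pseudogenes of BAK1, and reads shared with them were not analysed here, so BAK1 levels carry that uncertainty.

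The difference between lines was called for 5 members at 24 h (BBC3, BCL2L11, PMAIP1, BAX and BAK1), where 43.5% of all genes were called. At 72 h it was called for 8 members, all but HRK and BAX, where 52.9% of all genes were called. From 24 h to 72 h within a line, 1 member was called higher and 4 lower in MOLM-13 (all genes: 20.8% and 22.7%), 3 and 3 in MV-4-11 (all genes: 18.6% and 16.9%), and 1 and 3 in THP-1 (all genes: 16.2% and 16.5%). BMF was the member that rose in THP-1 (1.12 ± 0.16, adjusted p = 2.29e-05), and it fell in MOLM-13 (-0.73 ± 0.15, adjusted p = 0.000323). BAK1 fell between the times in MOLM-13 alone of the calls made (-0.76 ± 0.10, adjusted p = 2.07e-06), with -0.05 ± 0.10 (adjusted p = 0.766) in MV-4-11 and -0.10 ± 0.10 (adjusted p = 0.502) in THP-1.

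With DMSO alone, 8 members differed between the 3 lines, all but BAD and HRK, where 78.9% of all genes did. The log2 difference of MV-4-11 minus MOLM-13 was -5.15 ± 0.23 (adjusted p = 2.23e-13) for BIK, and that of THP-1 minus MOLM-13 was -3.43 ± 0.17 (adjusted p = 4.9e-13) for BBC3. BCL2L11 in MV-4-11 was above MOLM-13 by 1.28 ± 0.10 (adjusted p = 7.18e-10), while THP-1 and MOLM-13 differed by 0.07 ± 0.10 (adjusted p = 0.551). BAD was at 0.02 ± 0.22 (adjusted p = 1) between MV-4-11 and MOLM-13.

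Levels of different members can be compared only per length, here as CPM per kb of annotated exon (mean ± SD, n = 2). That length joins all annotated exons of a gene. The transcripts expressed were not analysed, so the order of members depends on this choice of length. In MOLM-13 the 3 highest members were BAK1 (35.4 ± 0.116), BAX (33.9 ± 3.18) and BBC3 (22.6 ± 0.700) at 24 h, and BAX (38.0 ± 1.75), BBC3 (34.8 ± 1.30) and BAK1 (21.9 ± 2.24) at 72 h, against BAX (48.8 ± 5.08), BIK (33.0 ± 2.39) and BAK1 (32.0 ± 2.25) with DMSO. The ranges of BAK1 and BAX overlapped at 24 h, and those of BIK and BAK1 with DMSO. On this scale BBC3 took the place of BIK among the 3 highest members of that line. In MV-4-11 the leaders were BAX (44.1 ± 0.827) and BCL2L11 (40.5 ± 2.72) at 24 h, which were close to each other, and BAX (34.1 ± 1.47) and BBC3 (32.7 ± 1.14) at 72 h, against BAX (44.2 ± 0.0189) and BCL2L11 (23.0 ± 0.191) with DMSO. In THP-1 PMAIP1 led at 24 h (41.4 ± 3.54) and at 72 h (22.9 ± 1.61), against BAK1 (27.7 ± 1.90) with DMSO, where BAX and PMAIP1 shared the next place at 22.3 ± 2.54 and 22.3 ± 0.242. HRK was last in every group.

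**Figure D3:**
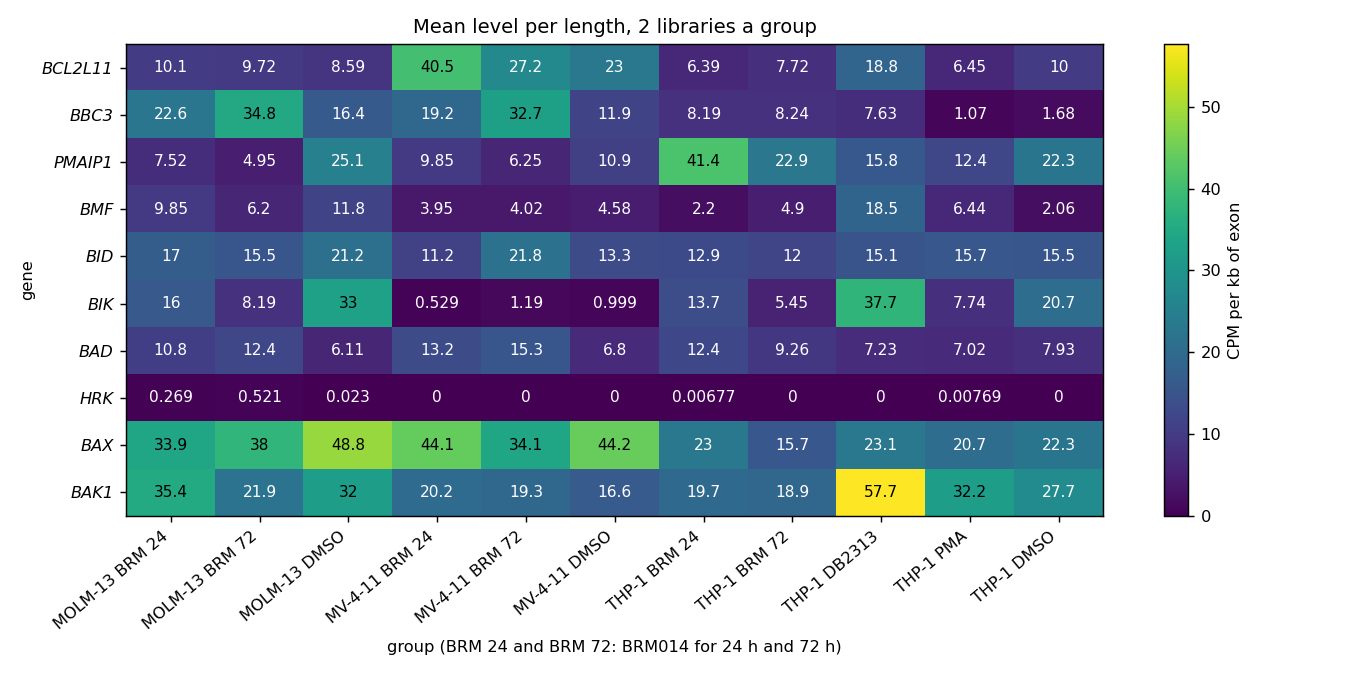
Mean level of each member (rows) in each group (columns), as CPM per kb of exon over 2 libraries, with lighter cells for higher levels and treated groups left of DMSO within a line. BAX and BAK1 fill most of the light cells, PMAIP1 reaches 41.4 in THP-1 at 24 h of BRM014 and BAK1 reaches 57.7 with DB2313.

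In THP-1, DB2313 allows the same members to be followed after inhibition of PU.1. BMF, BBC3, BAK1, BCL2L11 and BIK rose and PMAIP1 fell, which makes 5 members higher and 1 lower, where 35.9% and 29.5% of all genes were called. The median of the 9 members other than HRK was 0.79 on the log2 scale, where that of all genes was 0.14. BMF had 101 and 100.3 CPM with DB2313, against 10.6 and 11.9 CPM with DMSO, a fold of 3.09 ± 0.16 (adjusted p = 1.86e-12). BBC3 had 25.2 and 23.4 CPM, against 4.76 and 5.94 CPM, a fold of 2.09 ± 0.17 (adjusted p = 1.59e-09). BAK1 had 127 and 128 CPM, against 58.4 and 64.3 CPM, a fold of 0.98 ± 0.10 (adjusted p = 1.92e-08). For these 3 members both DB2313 libraries lay far above both DMSO libraries, with close replicates. BCL2L11 had 125 and 126 CPM with DB2313, against 68.3 and 65.2 CPM with DMSO (0.84 ± 0.10, adjusted p = 2.36e-07). BIK had 37.1 and 34.8 CPM, against 20.5 and 19.0 CPM (0.79 ± 0.17, adjusted p = 0.000395). PMAIP1 had 36.5 and 34.2 CPM, against 50.3 and 49.5 CPM (-0.57 ± 0.12, adjusted p = 0.00039). None of these groups overlapped. BAX (62.3 and 57.0 CPM, against 62.5 and 53.1 CPM with DMSO), BID (68.9 and 64.9 CPM, against 64.5 and 73.6 CPM) and BAD (13.6 and 11.0 CPM, against 12.3 and 14.8 CPM) overlapped with DMSO, with folds of -0.03 ± 0.12 (adjusted p = 0.864), -0.12 ± 0.08 (adjusted p = 0.214) and -0.21 ± 0.22 (adjusted p = 0.398). The BAX value was 0.05 with library size alone. The DB2313 libraries are numbered apart from all other libraries of the series, which run in sequence. The labels do not say whether the DB2313 and DMSO libraries were made together. An effect of DB2313 and one of a separate batch thus cannot be told apart, also in the comparison with BRM014.

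BRM014 for 72 h and DB2313 for 72 h were set against each other in THP-1. PMAIP1 was higher with BRM014 (0.52 ± 0.12, adjusted p = 0.000989) and 6 members were lower, where 30.4% and 30.9% of all genes were called. The lower members were BIK (-2.80 ± 0.19, adjusted p = 1.06e-10), BMF (-1.93 ± 0.15, adjusted p = 6.88e-10), BAK1 (-1.62 ± 0.10, adjusted p = 1.77e-11), BCL2L11 (-1.30 ± 0.10, adjusted p = 5.98e-10), BAX (-0.57 ± 0.12, adjusted p = 0.000492) and BID (-0.33 ± 0.09, adjusted p = 0.00215). BBC3 was at 23.5 and 28.9 CPM with BRM014 and 25.2 and 23.4 CPM with DB2313, overlapping groups with a difference of 0.10 ± 0.14 (adjusted p = 0.571). BIK, BAK1 and BCL2L11 were below the DMSO pair with BRM014 and above it with DB2313.

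The BAK1 promoter is shown because its window alone, among the members with a window, holds the exact letters GAGGAAGT, of the PU.1 type. The window is that of the RefSeq start (GRCh38.p14, chromosome 6, 33580227 to 33580526, minus strand, 5′ to 3′). The match is on the opposite strand, so it reads in reverse complement, in capitals.
BAK1: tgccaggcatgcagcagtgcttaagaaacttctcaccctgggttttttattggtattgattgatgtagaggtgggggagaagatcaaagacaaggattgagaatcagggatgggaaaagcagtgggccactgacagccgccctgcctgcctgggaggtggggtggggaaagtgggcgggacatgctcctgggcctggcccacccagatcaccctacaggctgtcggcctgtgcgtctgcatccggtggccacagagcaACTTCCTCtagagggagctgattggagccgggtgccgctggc
GAGGAAGT was searched on both strands and was present in 2.59% of the 35116 windows. Letters close to it were not searched for. The shorter AGGAAGT lies also in the windows of BBC3 and PMAIP1 and, on the opposite strand, in a window of BMF. The match thus does not set BAK1 apart for letters of this type. Binding was not tested. TGACGTCA, the cyclic AMP response element (1.85% of windows), was in none of the members' windows. GTAAACA, letters of the forkhead type (3.42% of windows), was in that of BCL2L11 only. The windows cover every member but BIK.

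PMA, which drives THP-1 cells towards macrophages, gave 2 members higher and 4 lower (1 and 4 with library size alone), where 18.9% and 17.1% of all genes were called. The median of the 9 members other than HRK was -0.09, where that of all genes was -0.02. BMF had 40.9 and 29.2 CPM with PMA, against 10.6 and 11.9 CPM with DMSO (1.72 ± 0.16, adjusted p = 4.26e-08). BIK had 6.49 and 8.27 CPM, against 20.5 and 19.0 CPM (-1.33 ± 0.18, adjusted p = 7.4e-06). PMAIP1 had 30.8 and 24.4 CPM, against 50.3 and 49.5 CPM (-0.77 ± 0.12, adjusted p = 5.25e-05). These 3 calls were made also from the PMA and DMSO libraries alone, and their groups did not overlap. BCL2L11 had 50.1 and 35.7 CPM with PMA, against 68.3 and 65.2 CPM with DMSO (-0.55 ± 0.10, adjusted p = 0.000187). BBC3 had 3.41 and 3.37 CPM, against 4.76 and 5.94 CPM (-0.58 ± 0.22, adjusted p = 0.0417). BAK1 had 66.1 and 76.3 CPM, against 58.4 and 64.3 CPM (0.30 ± 0.10, adjusted p = 0.0189). The calls of BCL2L11, BBC3 and BAK1 were lost in the fit of the PMA and DMSO libraries alone (adjusted p = 0.0624, 0.223 and 0.139), which leaves 3 members called. BBC3 was also lost without either PMA library (-0.57 and -0.60) or without the second DMSO library (-0.40). BAK1 was lost without the second PMA library (0.16), without the first DMSO library (0.23) and with library size alone (0.21). BAX (47.1 and 60.1 CPM with PMA), BID (75.6 and 64.2 CPM) and BAD (8.63 and 15.3 CPM) overlapped with their DMSO pairs, at -0.02 ± 0.12 (adjusted p = 0.93), 0.10 ± 0.08 (adjusted p = 0.388) and -0.09 ± 0.22 (adjusted p = 0.78). Without the second PMA library BAD was called, at -0.59 (adjusted p = 0.0291). The PMA libraries had 16.02% and 12.4% of reads outside annotated genes, against 16.5% and 15.8% with DMSO.

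Partners of the members were followed in 7 lists. Their counts are to be read against the calls over all genes, 28.9% higher and 27.1% lower at 24 h and 34.9% and 30.4% at 72 h in the average over lines, 35.9% and 29.5% with DB2313, and 18.9% and 17.1% with PMA. The PMA counts come from the fit of all libraries, and genes called over all genes numbered 3016 from the PMA and DMSO libraries alone, against 6057 in that fit. Of 5 anti-apoptotic genes tested, 3 higher and 2 lower were called in the average over lines at 72 h of BRM014 (all genes: 34.9% and 30.4%), as at 24 h. BCL2, the target of venetoclax, had 28.0 ± 3.17 CPM in MOLM-13 at 72 h, against 303 ± 13.2 CPM with DMSO (mean ± SD, n = 2), and -3.11 ± 0.04 in the average over lines. MCL1, the partner of NOXA, had 1051 ± 28.6 CPM in MV-4-11, against 211 ± 0.943 CPM, and 1.31 ± 0.04 in the average. BCL2A1 was at -2.96 ± 0.55 in the average and was under 1 CPM in all THP-1 BRM014 and DMSO libraries. With DB2313, 4 higher and 1 lower were called, BCL2 at -2.29 ± 0.07, and BCL2A1 had 20.4 ± 3.96 CPM, against 0.125 ± 0.177 CPM with DMSO. With PMA 1 higher and 1 lower were called, BCL2A1 at 3.70 ± 0.0588 CPM and BCL2 at -1.97 ± 0.07. At 72 h PMAIP1 fell and its partner MCL1 rose in MOLM-13 (-2.53 ± 0.13 and 1.16 ± 0.07) and in MV-4-11 (-0.86 ± 0.13 and 2.26 ± 0.07). In THP-1 both rose at 24 h (0.85 ± 0.12 and 0.99 ± 0.07), and at 72 h PMAIP1 was at -0.05 ± 0.12, not called, and MCL1 at 0.52 ± 0.06.

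Of 7 other BCL2-related genes, 2 higher and 2 lower were called at 24 h (all genes: 28.9% and 27.1%) and 3 higher and 2 lower at 72 h (all genes: 34.9% and 30.4%), 2 higher and 1 lower with DB2313 and 1 higher and 0 lower with PMA. BNIP3, a mitophagy receptor, was at -1.68 ± 0.10 at 72 h, BCL2L12 at -0.67 ± 0.06 and BCL2L13 at 0.40 ± 0.04. By line BNIP3 had 28.9 ± 0.428 CPM in MOLM-13, against 91.0 ± 6.56 CPM with DMSO (mean ± SD, n = 2). It had 13.6 ± 0.163 CPM in MV-4-11, against 94.3 ± 4.59 CPM, but 17.1 ± 3.72 CPM in THP-1, against 20.3 ± 0.585 CPM. The 9 genes of the apoptosome and its caspases, which act after BAX and BAK1, gave 5 higher and 3 lower at 24 h and 3 higher and 3 lower at 72 h, 3 higher and 5 lower with DB2313 and 2 higher and 3 lower with PMA. CYCS, the gene of cytochrome c, was at -1.38 ± 0.05, CASP2 at -0.91 ± 0.06 and CASP9, the initiator caspase, at 0.76 ± 0.07. Of 7 inhibitors of apoptosis and their antagonists, 3 higher and 1 lower were called at 24 h and 4 higher and 2 lower at 72 h, 1 higher and 4 lower with DB2313 and 1 higher and 2 lower with PMA. XIAP, which blocks caspases, was at 1.32 ± 0.05, BIRC3 at 1.61 ± 0.44 and HTRA2, a mitochondrial protease that antagonises XIAP, at -1.05 ± 0.08. BIRC3 rose in MV-4-11 (3.74 ± 0.49, adjusted p = 1.67e-06) and was at -0.73 ± 0.65 in THP-1.

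The 10 genes of the death receptor pathway, which reaches mitochondria through BID, gave 7 higher and 2 lower at 24 h (all genes: 28.9% and 27.1%) and 8 higher and 2 lower at 72 h (all genes: 34.9% and 30.4%), 7 higher and 0 lower with DB2313 (all genes: 35.9% and 29.5%) and 7 higher and 0 lower with PMA (all genes: 18.9% and 17.1%). CFLAR, the decoy that restrains caspase-8, was at 2.60 ± 0.05 at 72 h, RIPK1 at 1.57 ± 0.07 and the receptor TNFRSF10B at 1.502 ± 0.047. The 9 transcription factors known to act on BH3-only genes gave 4 higher and 3 lower at 24 h and 5 higher and 4 lower at 72 h, 5 higher and 4 lower with DB2313 and 3 higher and 2 lower with PMA. TP73, a relative of p53 that acts on BBC3, was at 2.03 ± 0.16 at 72 h, and FOXO1, a forkhead factor that acts on BCL2L11 and BBC3, at 1.97 ± 0.15. MYC was at -5.04 ± 0.05. In THP-1 TP73 had 40.9 ± 0.980 CPM at 72 h, against 30.8 ± 0.131 CPM with DMSO, a fold of 0.32 ± 0.11 (adjusted p = 0.02). Its larger folds in MOLM-13 (2.34 ± 0.23) and MV-4-11 (3.43 ± 0.43) came from 0.580 ± 0.0187 and 0.0757 ± 0.0285 CPM with DMSO. The 12 binding partners and kinases of BH3-only proteins gave 5 higher and 5 lower at 24 h and 5 higher and 5 lower at 72 h, 5 higher and 4 lower with DB2313 and 1 higher and 2 lower with PMA. MAPK3, a kinase that marks BIM for degradation, was at 0.69 ± 0.06, PIM2, a kinase of BAD, at 0.52 ± 0.06 and VDAC2, which holds BAK1 and BAX at mitochondria, at -0.45 ± 0.05. By line PIM2 was at 1.98 ± 0.11 (adjusted p = 2.57e-12) in MV-4-11, -0.32 ± 0.11 (adjusted p = 0.0151) in MOLM-13 and -0.10 ± 0.11 (adjusted p = 0.452) in THP-1. Each of the genes named from these lists passed the threshold at 72 h in the average over lines. The median log2 fold change in that average was 0.75 in the anti-apoptotic list, 0.34 in the other BCL2-related list, -0.09 in the apoptosome and caspase list, 0.34 in the inhibitor of apoptosis list, 0.64 in the death receptor list, 0.23 in the transcription factor list and -0.04 in the list of partners and kinases, where the median of all genes was 0.07.

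**Figure D4:**
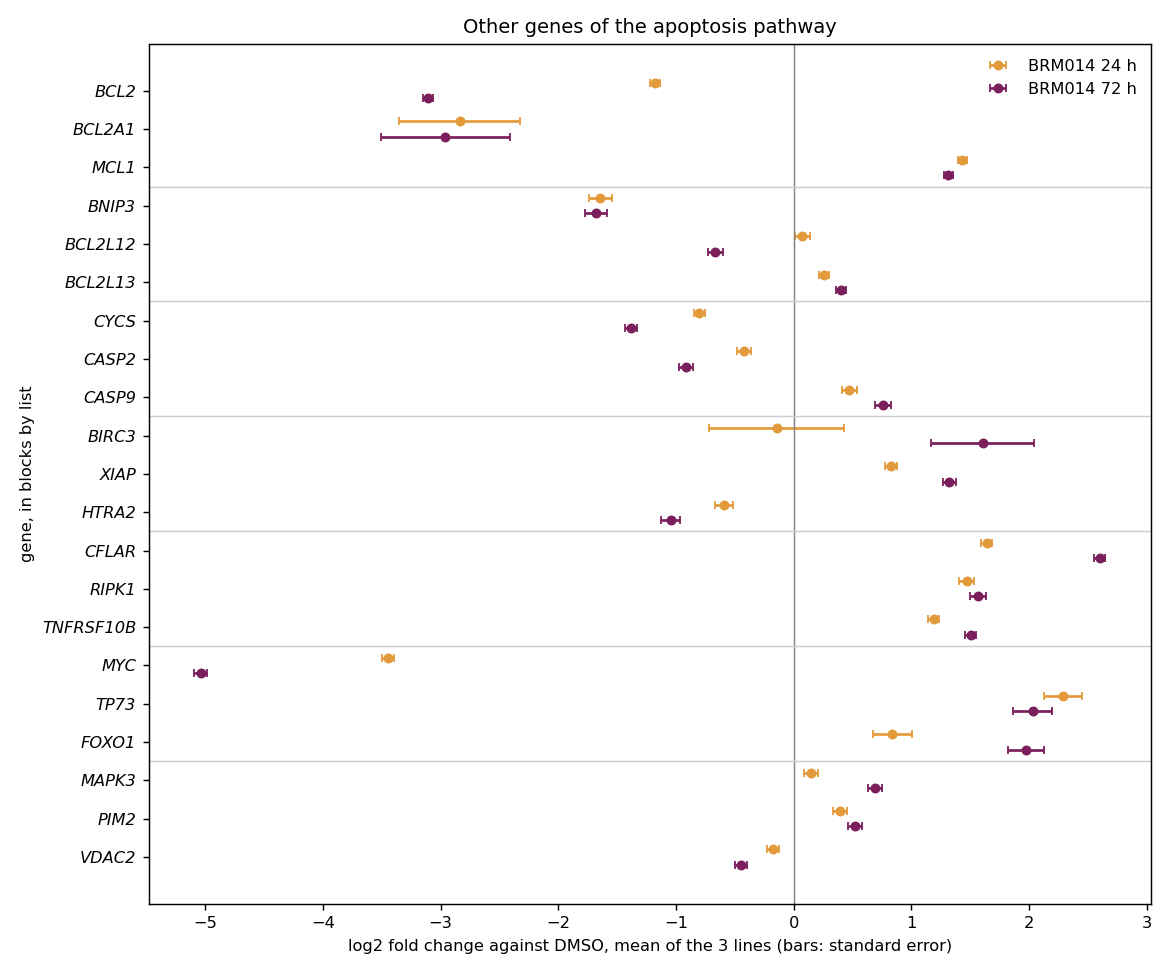
Log2 fold change of up to 3 genes from each of the 7 lists (rows, in blocks) averaged over the 3 lines, at 24 h (orange) and 72 h (purple) of BRM014 against DMSO, with bars for the standard error. BCL2, BCL2A1, CYCS and MYC lie left of 0 at both times, and MCL1, XIAP, CFLAR, RIPK1 and TNFRSF10B lie right of 0 at both.

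As a description of pattern, the 3 genes whose group means of log2 CPM followed each member most closely over the 11 groups were found by Pearson's r, which rests on groups that share a line. BAX was followed most closely by EXOSC1 (0.9849), GTPBP8 (0.9703), VDAC2 (0.9676). VDAC2, a mitochondrial channel, is also in the list of binding partners. BAD was followed by EOGT (0.9764), UBR1 (0.9763), RAP1B (0.9645), and BIK by LRRC26 (0.9731), ADGRG5 (0.9645), NXPH4 (0.9547). BBC3 was followed by AUH (0.9656), CDADC1 (0.9626), CACNB3 (0.962), and BCL2L11 by NMT1 (0.9615), EDA2R (0.9466), USP46 (0.9376). EDA2R is a receptor gene known as a p53 target. PMAIP1 was followed by HOXA10 (0.9412), GPR89A (0.9132), DMRT1 (0.9003). BAK1 was followed by RIN1 (0.9298), PLEKHF1 (0.9176), FCRL1 (0.9139), BMF by CD79A (0.8993), MAP1S (0.8794), LINC02081 (0.8649) and BID by DBI (0.8552), FAM86B2 (0.7996), ACSS2 (0.7817). The limit of 5 CPM was set for the members and not for their neighbours. CD79A was low, with a median of 0.404 CPM and at most 4.48 CPM over the libraries. None of the 10 members was among the 3 nearest genes of another member.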

How the data were processed

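Polyadenylated RNA of 22 libraries was sequenced and read counts per gene were deposited by the authors. Per the submitters' processing notes, HISAT2 2.1.0, HTSeq, DESeq2 and the hg38 build were used. Settings and strand are not given in the sources used here. The 5 summary lines of each file (reads outside genes, 12.0% to 19.2%, ambiguous, and so on) were left out of library sizes. CPM used reads in genes alone. Genes passing filterByExpr (minimum count 10) numbered 16794. They were tested with edgeR 4.0.16 (R 4.3.3, limma 3.58.1), TMM scaling, 1 coefficient per group over all 22 libraries and quasi-likelihood F tests. P-values were adjusted by Benjamini-Hochberg over all genes tested, with a threshold of 0.05, and errors of fold changes are standard errors. The procedure was run on simulated data with an even spread and with changes in a single group, a simpler setting than these data. That run does not bear on the scaling or the shared spread here.

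Named genes were all 10 members, the 3 nearest genes by pattern for members with at least 5 CPM on average, and up to 3 called genes per pathway list with the largest change at 72 h in the average over lines. GPR137, MIR4435-2HG and the values of BIRC3, BNIP3, PIM2, TP73 and MCL1 by line were added after values were seen. The members and lists were chosen with earlier results of these data known. Alternatives were other scalings, no filter, DESeq2 1.42.0, a replicate block, fewer libraries in the fit and leaving out each library. Proteins were not analysed here, so the BH3 core is shown as coding sequence.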

Additional observations from a re-analysis of the deposited data

Results flagged for a closer look

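In groups of 2 libraries no library can be tested for standing apart. The difference between the 3 lines in the BRM014 effect was tested directly, with the quasi-likelihood F test of edgeR over all genes, and 13 values for the members had an adjusted p under 0.05. At 24 h these were BCL2L11 (adjusted p = 2.84e-07), BBC3 (2.16e-06), PMAIP1 (1.57e-09), BAX (0.00582) and BAK1 (0.000486). At 72 h they were BCL2L11 (0.00174), BBC3 (0.000196), PMAIP1 (2.8e-09), BMF (1.73e-07), BID (2.83e-08), BIK (7.53e-05), BAD (0.0263) and BAK1 (2.92e-05). BCL2L11 at 24 h and BID and BMF at 72 h were called in opposite directions in 2 lines, and so was PMAIP1 at 24 h. BBC3 was called higher in all 3 lines, but its MOLM-13 call at 24 h (0.34, adjusted p = 0.0454) was lost in several other fits. At 24 h its difference is thus not settled as one of size alone. Differences of this kind were called for 43.5% of all genes at 24 h and 52.9% at 72 h, and each line has its own DMSO pair.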

How the results depend on the processing

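With the replicate block, all 17 counts of called members stayed within 1.5 times of their values. With it 1 member fold crossed the threshold and so joined its count, BMF in the average over lines at 24 h (-0.21, adjusted p = 0.0341, against 0.0528 without it). Replicate numbers did not pair the samples: deviations of same-numbered libraries correlated at -0.0221 to 0.0871 in MOLM-13, 0.00147 to 0.023 in MV-4-11 and -0.117 to 0.0446 in THP-1. One count moved by more than 1.5 times in a full set of libraries: with PMA, 3 members and 3016 genes were called from the PMA and DMSO libraries alone, against 6 and 6057 in the fit of all libraries. Leaving out 1 library gave 5 to 7 members in MOLM-13 and 3 to 5 in MV-4-11 at 24 h. The other counts then stayed within 1.5 times of their values. Of the member folds recomputed without 1 library, 603 were alike in direction and call, 32 lost the call, 3 gained it and 22 changed sign. Library size alone raised folds, gene by gene, by a median of 0.13 in MOLM-13 at 24 h, 0.19 there at 72 h and 0.11 in the average over lines at 72 h.

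Every sign change fell on a value that was not called, and its cause was not tested. With library size alone, BCL2L11 was 0.179 in MOLM-13 and 0.0134 in the average over lines at 72 h, BMF 0.0433 in that mean, PMAIP1 0.0364 in THP-1 at 72 h, BAX 0.0431 in THP-1 at 24 h and 0.0476 with DB2313, and BBC3 0.00639 between the times in THP-1. BAX with DB2313 was 0.00445 with relative log expression factors and 0.0041 with DESeq2, BAX with PMA was 0.0195 from the compared libraries alone, and BAK1 in MOLM-13 at 24 h was -0.0259 without a filter. Without 1 library, BAX ranged over -0.00501 to 0.198 between the times in MOLM-13, -0.107 to 0.11 in THP-1 at 24 h, -0.233 to 0.171 with PMA and -0.133 to 0.0849 with DB2313. BCL2L11 ranged over -0.0452 to 0.0176 in MOLM-13 at 72 h and BAK1 over -0.0693 to 0.108 there at 24 h. BMF ranged over -0.229 to 0.272 in THP-1 at 24 h and -0.0292 to 0.0969 between the times in MV-4-11, where BAK1 ranged over -0.119 to 0.00766 and BIK over -0.264 to 0.829 at 72 h. BBC3 ranged over -0.188 to 0.108 between the times in THP-1 and -0.0539 to 0.242 against DB2313, PMAIP1 over -0.125 to 0.0241 in THP-1 at 72 h, and BAD over -0.595 to 0.285 with PMA. With 2 libraries a group, members under a few CPM (HRK, and BIK in MV-4-11) rest on few reads.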
